A study of Mus musculus with 57 samples.

Results

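Collagen-modifying enzymes and the collagen chaperone were followed as 9 genes of the 55450 in the deposited count table: P4ha1, P4ha2, P4hb, Plod1, Plod2, Plod3, Serpinh1, Lox and Loxl2. They were chosen by name, from what their products do, by a rule that uses no measured value but with earlier results of these data known. The cells were mouse embryonic stem cells (ESCs) of a single sorted clone, Sox1-EGFP/FoxA2mCherry, in which EGFP takes the place of 1 Sox1 allele and mCherry is fused to FOXA2, so that all groups carry both reporters. Sox1 marks neuroectoderm and FOXA2 marks endoderm, and cells were sorted on both signals, against gates set on reporter-free wild-type cells, into a negative (Sox1-FOXA2-), a Sox1+FOXA2-, a Sox1-FOXA2+ and a Sox1+FOXA2+ population. The 39 sorted libraries cover Sox1-FOXA2- cells at D0, before retinoic acid (RA), and the 4 populations after 2, 4 and 6 days in N2B27 medium with 1 uM RA (D2, D4 and D6). Before RA the cells were kept in serum medium with leukemia inhibitory factor. RA and the change of medium therefore cannot be told apart between D0 and D2. The 18 progeny libraries hold the descendants of cells positive for Sox1, for FOXA2 or for both, sorted at D2, replated and kept in RA until D4 or D6 in serum-based medium, then taken without a second sort. Replating, the change of basal medium and the lack of a second sort therefore cannot be told apart when progeny are set against sorted cells. Each of the 19 conditions has 3 biological replicates, and p-values measure the spread between them.

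Collagen chains are modified in the endoplasmic reticulum while they are made. Prolyl 4-hydroxylase, built from a catalytic alpha subunit (P4ha1 or P4ha2) and the protein disulfide isomerase P4hb, hydroxylates the prolines that keep the collagen helix stable at body temperature, and lysyl hydroxylases (Plod1, Plod2, Plod3) hydroxylate lysines that later carry sugars and cross-links. Serpinh1 encodes HSP47, a chaperone that binds folded procollagen, and Lox and Loxl2 encode secreted copper enzymes that oxidize lysines so that collagen and elastin fibers or networks become cross-linked. Primitive and parietal endoderm of the early mouse embryo are known for making large amounts of basement membrane, whose network collagen is type IV, encoded by Col4a1 and Col4a2.

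Start-site windows were examined for 6 of the 9 genes, not for Plod2, Lox or Loxl2. The windows are from RefSeq (GRCm38.p6, 250 bases before to 50 bases after the annotated start, read 5′ to 3′ on the gene's strand). Those of P4ha1 at chr10:59323046-59323345 (plus strand), P4ha2 at chr11:54100674-54100973 (plus strand), P4hb at chr11:120573204-120573503 (minus strand) and Serpinh1 at chr7:99353190-99353489 (minus strand) are shown because these members had a window at hand and separated the single-positive populations on both D4 and D6 (below). Capitals mark ACGTG, which is the core of the hypoxia response element, and the variant core GCGTG, each on either strand. P4ha1, P4ha2, Plod2 and Lox are known targets of hypoxia-inducible factors.
P4ha1: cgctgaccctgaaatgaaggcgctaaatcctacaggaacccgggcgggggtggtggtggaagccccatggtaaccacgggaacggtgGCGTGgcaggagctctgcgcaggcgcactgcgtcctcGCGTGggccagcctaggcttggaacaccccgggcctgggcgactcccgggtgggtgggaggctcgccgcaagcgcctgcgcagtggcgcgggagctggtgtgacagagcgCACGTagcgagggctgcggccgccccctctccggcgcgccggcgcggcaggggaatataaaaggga
P4ha2: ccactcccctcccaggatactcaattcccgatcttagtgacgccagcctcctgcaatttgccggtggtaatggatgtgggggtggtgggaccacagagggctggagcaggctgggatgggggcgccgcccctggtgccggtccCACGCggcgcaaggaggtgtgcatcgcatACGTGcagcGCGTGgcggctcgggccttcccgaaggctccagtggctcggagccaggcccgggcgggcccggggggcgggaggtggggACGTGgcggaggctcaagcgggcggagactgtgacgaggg
P4hb: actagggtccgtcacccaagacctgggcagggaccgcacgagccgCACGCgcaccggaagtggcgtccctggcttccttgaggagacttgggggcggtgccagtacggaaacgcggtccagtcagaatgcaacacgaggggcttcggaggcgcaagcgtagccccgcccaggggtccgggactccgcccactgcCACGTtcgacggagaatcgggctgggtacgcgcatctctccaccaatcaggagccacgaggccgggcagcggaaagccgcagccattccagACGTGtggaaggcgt
Serpinh1: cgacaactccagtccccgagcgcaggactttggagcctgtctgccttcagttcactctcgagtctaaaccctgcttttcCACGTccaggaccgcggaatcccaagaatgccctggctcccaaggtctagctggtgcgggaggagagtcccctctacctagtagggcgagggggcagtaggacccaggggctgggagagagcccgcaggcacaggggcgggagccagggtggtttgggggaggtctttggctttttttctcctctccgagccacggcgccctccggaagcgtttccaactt
ACGTG was found in 5 of the 6 windows (all but Plod1) and in 19.6% of the 32851 mouse start-site windows of the same length, GCGTG in 5 of the 6 (all but Serpinh1) and in 32.4%. The GC content of the 6 windows was 53.3% to 70.3%, where the median of all windows was 52.7%, and both motifs contain CG. Other motifs were searched in the same windows. A GC-box motif matched in all but Plod3, and in 35.7% of all windows. A CAAT-box motif matched in P4hb and Plod3, and in 37.4%. Motifs for heat-shock, GATA and forkhead factors and for endoplasmic reticulum stress had no match in the 6 windows. They were found in 0.603%, 11.2%, 3.65% and 0.119% of all windows, so their absence here says little. All these matches describe the sequence only, and no binding was measured.

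Values are raw counts divided by median-of-ratios size factors (normalised counts), which compare libraries for 1 gene. Levels between genes are compared only as normalised counts per kilobase of merged exon. The genes lie on 8 chromosomes (GRCm38, GENCODE M21): P4ha1 at chr10:59323296-59373304, P4ha2 at chr11:54100095-54131665, P4hb at chr11:120560298-120573253, Plod1 at chr4:147909753-147936767, Plod2 at chr9:92542223-92608428, Plod3 at chr5:136987019-136996648, Serpinh1 at chr7:99345376-99353239, Loxl2 at chr14:69609068-69695834 and Lox on chr18. All 9 are protein-coding. Exon bases shared with another gene make up 11.9% of Plod3 (Znhit1 and Mir702), 6.42% of Plod2 (Gm38391) and 5.70% of Loxl2 (Gm27177 and Mir6950). Whether reads there were counted by strand is not given in the sources used here, so a small part of these counts is uncertain.

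The 9 genes differed widely in level. Over the 57 libraries the mean per kilobase was 8286 for P4hb and 6868 for Serpinh1, against 1475 for Plod2, 1459 for P4ha1, 809 for P4ha2 and 715 for Loxl2. Plod3 (259) and Plod1 (112) were lower, and Lox was lowest at 6.93, with 0 counts in 26 of 57 libraries. P4hb and Serpinh1 together held 85.6% of the summed per-kilobase level of the 9 at D0 and 70.6% in D6 Sox1-FOXA2+ cells. The per-kilobase ratio of P4hb, which is also part of other enzymes and a free isomerase, to P4ha1 plus P4ha2 was 15.2 at D0 (replicates 8.24 to 24.3) and 2.67 in D6 Sox1-FOXA2+ cells (2.61 to 2.76). Among the lysyl hydroxylases, Plod2 held the highest per-kilobase level in D6 Sox1-FOXA2+ cells, 13.4 times Plod3 and 28.6 times Plod1 as the mean of replicate ratios.

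**Figure D1:**
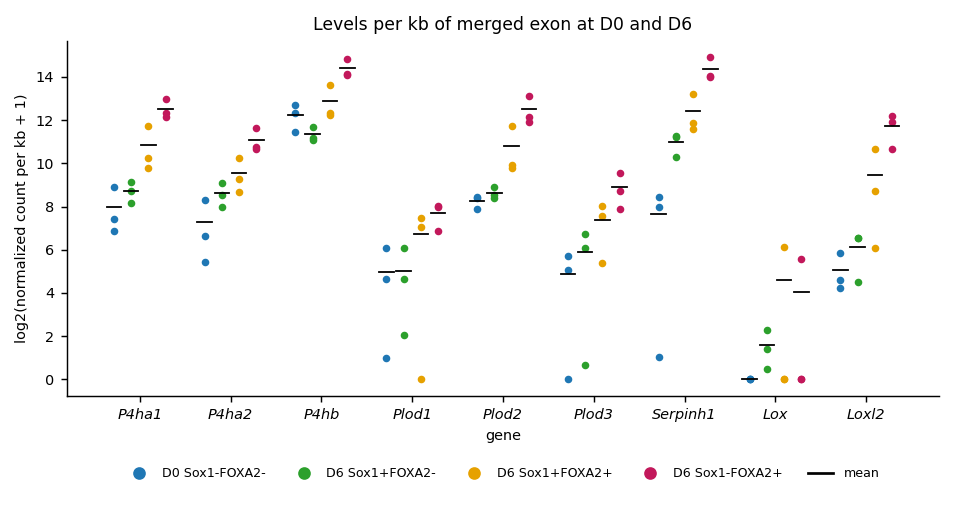
Normalised counts per kilobase of exon for each of the 9 genes, with condition means, on a log scale. P4hb and Serpinh1 are the highest genes in sorted Sox1-FOXA2+ cells at D6, at 21454 and 21326, and Lox is the lowest at 15.6.

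For 8 of the 9 genes the condition with the highest mean was D6 progeny of Sox1-FOXA2+ cells, and for 7 of the 9 the lowest was D0. P4hb was lowest in D6 Sox1+FOXA2- cells, and Lox, at 0 in D0 and in 3 other conditions, was highest in D6 Sox1+FOXA2+ cells. That Lox mean of 112 rests on 1 library, at 335. From the lowest to the highest condition the mean differed 134-fold for Serpinh1, 127-fold for Loxl2, 34.1-fold for Plod3, 29.4-fold for P4ha2, 27.4-fold for P4ha1, 25.2-fold for Plod2, 13.8-fold for Plod1 and 10.7-fold for P4hb. Some of these folds rest on D0 means that include a library near or at 0. Serpinh1 was at 2.64 in D0 replicate 2, and Plod3 at 0 in D0 replicate 3. Plod1 was also low in D0 replicate 2, where the per-kilobase ratio of Plod2 to Plod1 was 360, beside 5.12 and 9.58. Neighbours in the order of condition means mostly overlapped between replicates. P4ha1 and Serpinh1 each had 2 of 18 neighbouring pairs without overlap, P4ha2 and Plod3 had 1, and the other 5 genes had 0, so that only wide steps in the order exceed the spread.

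**Figure D2:**
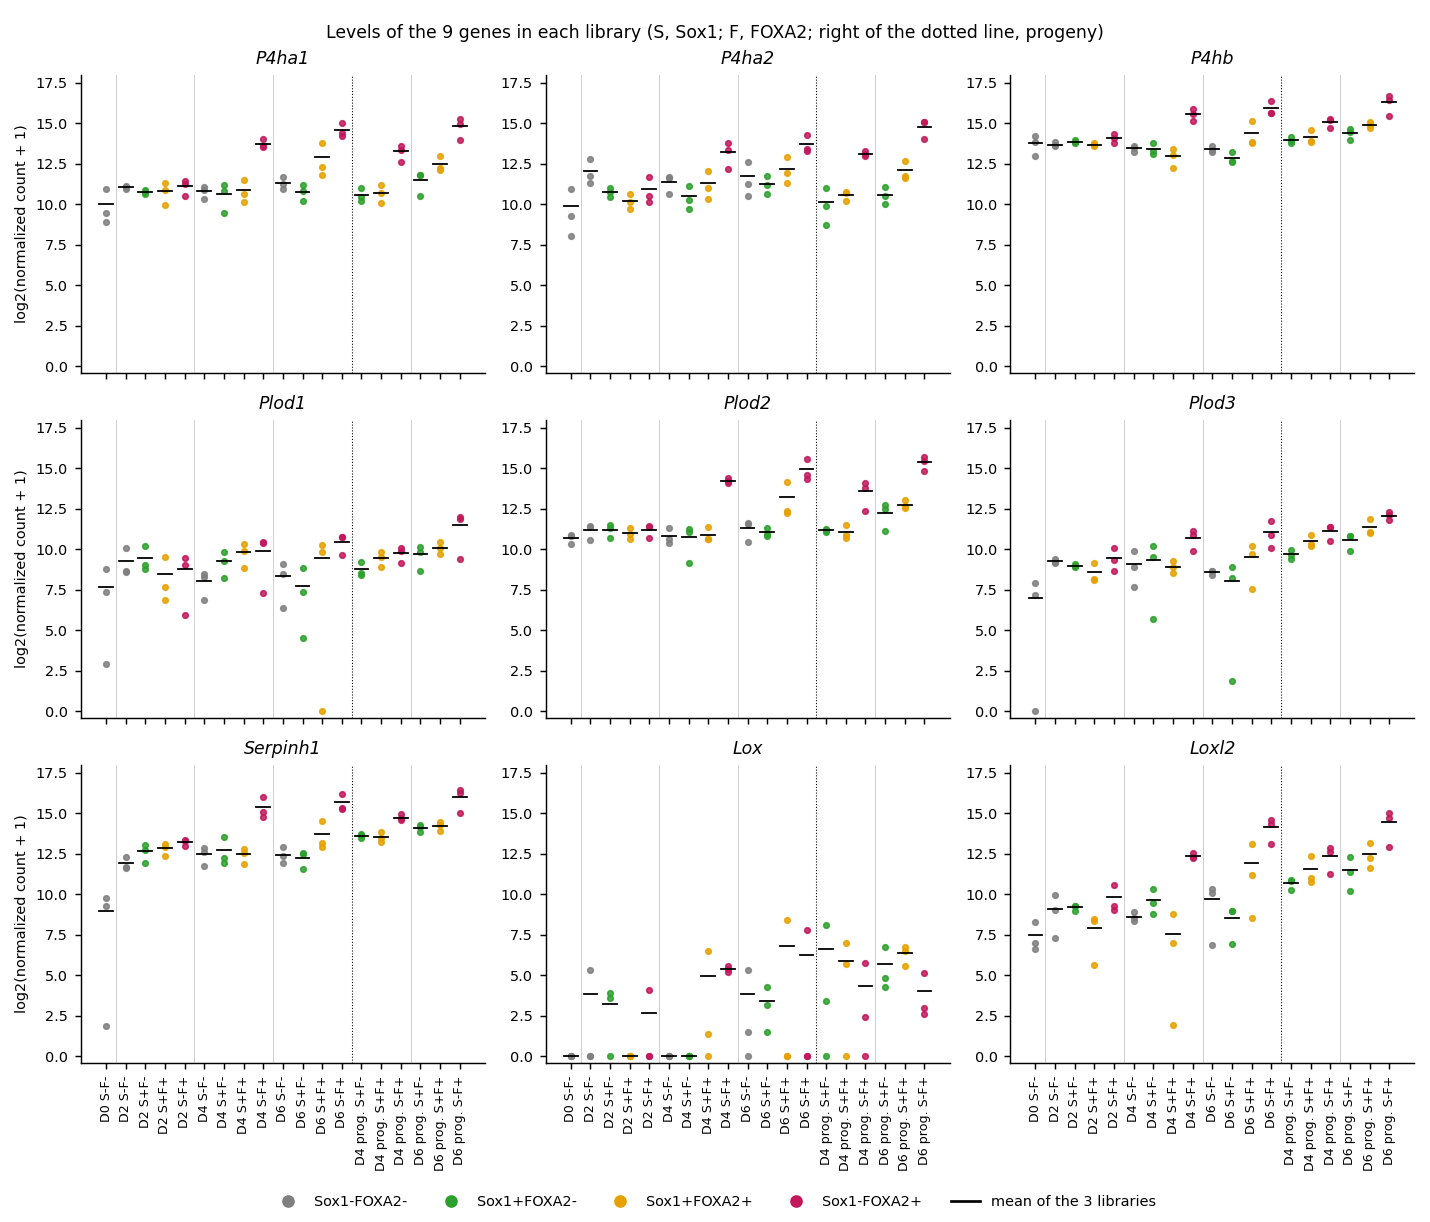
Level of each gene in every library, as log2 of the normalised count plus 1, with points for the 57 libraries and a bar at the log2 of the condition mean. P4ha1, P4hb, Plod2 and Serpinh1 stand high in all sorted D4 and D6 Sox1-FOXA2+ libraries and in progeny of D2 Sox1-FOXA2+ cells. Lox has 0 counts in 26 libraries, a median normalised count of 1.85 and a highest of 335.

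Depth lay between 10170632 and 81845651 counts per library (median 36694379). The gates were compared with marker lists that hold none of the 9 genes. The summed normalised count of 7 endoderm genes (Foxa2, Sox17, Gata4, Gata6, Sox7, Dab2 and Lama1) was 359200.0 to 710988 in D6 Sox1-FOXA2+ cells and 3974 to 5044 in D6 Sox1+FOXA2- cells. Foxa2 is the gene the gate reads, so its own difference is not a result. The summed count of 5 neuroectoderm genes was 16979.7 to 17803 in D6 Sox1+FOXA2- cells and 4399 to 5184 in D6 Sox1-FOXA2+ cells. It was 17265 to 28429 in D6 Sox1-FOXA2- cells, which overlaps Sox1+FOXA2- cells. The summed count of 7 mesenchyme and fibroblast genes was 7728 to 24154 in D6 Sox1-FOXA2+ and 1133 to 2661 in D6 Sox1+FOXA2- cells. Of these 7 genes, 2 had a positive log2 fold change, and only Pdgfra was called, where 1.32% of all genes tested were. D6 Sox1+FOXA2+ libraries were uneven, with endoderm sums of 38501, 112385 and 256020.0 in replicates 1, 2 and 3, and their values are printed beside each result below. In a bulk library, fewer cells of a type and less RNA per cell cannot be told apart.

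At D2 no member passed the test in the comparisons made between populations. P4ha1 counted 2793, 2435 and 1462 in Sox1-FOXA2+ and 1711, 1844 and 1566 in Sox1+FOXA2- cells, and Serpinh1 8243, 10299 and 9810.2 against 8465, 6869 and 3899. Both gates overlap for each. With edgeR's quasi-likelihood test, 0 of the 9 passed an adjusted p under 0.05 between Sox1-FOXA2+ and Sox1+FOXA2- cells, where 0.00491% of all genes tested passed, and 1 of 9 had an unadjusted p under 0.05. The same count of 0 held for Sox1-FOXA2+ against Sox1-FOXA2- cells (0.0196% of all genes, 3 of 9 unadjusted), where DESeq2 and the fit without a filter on low counts each called 1. It also held for Sox1+FOXA2+ cells against Sox1+FOXA2- (0%, 0 unadjusted) and Sox1-FOXA2+ cells (0%, 2 unadjusted), with no call by DESeq2.

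By D4 and D6 the prolyl 4-hydroxylase subunits were higher in Sox1-FOXA2+ cells. The catalytic subunit P4ha1 counted 16328, 11929 and 12145 in the 3 D4 Sox1-FOXA2+ libraries, 1762, 688 and 2322 in Sox1+FOXA2- and 2124, 1276 and 1871 in Sox1-FOXA2- libraries. All 3 Sox1-FOXA2+ libraries lay above every library of Sox1+FOXA2- and of Sox1-FOXA2- cells. The log2 fold change over Sox1+FOXA2- cells was 3.17 ± 0.435 (SE, n = 3, edgeR adjusted p = 0.000312), an 8.46-fold ratio of means. At D6 P4ha1 reached 33091, 18643 and 21212 against 1756, 1169 and 2295, 14.0-fold, with a log2 fold change of 4.01 ± 0.483 (edgeR adjusted p = 5.80e-06).

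The second catalytic subunit, P4ha2, varied more between replicates. It counted 13786, 4633 and 10468 in D4 Sox1-FOXA2+ and 2239, 838 and 1208 in D4 Sox1+FOXA2- libraries, and 19531, 10838 and 10118 against 1577, 2301 and 3381 at D6. The groups do not overlap on either day. The log2 fold change was 2.76 ± 0.552 at D4 (6.74-fold, edgeR adjusted p = 0.0328) and 2.70 ± 0.553 at D6 (5.58-fold, adjusted p = 0.00983). The D4 call was lost without Sox1-FOXA2+ replicate 1 or 3 or without Sox1+FOXA2- replicate 2 or 3 (adjusted p up to 0.263), and the D6 call without Sox1+FOXA2- replicate 2 (adjusted p = 0.0694). Against Sox1-FOXA2- cells P4ha2 did not pass, at log2 fold changes of 1.86 ± 0.534 at D4 (edgeR adjusted p = 0.253) and 2.00 ± 0.538 at D6 (adjusted p = 0.086). With a replicate block, whose numbers pair the libraries at D4, the D4 adjusted p was 0.0332, within a range of 0.00557 to 0.45 over 7 other settings.

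The partner subunit P4hb was already abundant at D0, at 14785, 8079 and 18798. At D4 it counted 60074, 36191 and 49235 in Sox1-FOXA2+ and 14251, 8644 and 10136 in Sox1+FOXA2- libraries, and at D6 83522, 49496 and 51121 and 9430.0, 6579.5 and 6216, with no overlap. The ratio of means was 4.40 at D4 and 8.29 at D6, and the log2 fold changes were 2.16 ± 0.366 (edgeR adjusted p = 0.00359) and 3.25 ± 0.412 (adjusted p = 1.21e-05). The calls of P4ha1 and P4hb on both days stood without any 1 of the 6 libraries compared.

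Of the lysyl hydroxylases, Plod2, which acts on the telopeptide lysines used for stable cross-links, had the widest difference among the called genes. It counted 19337, 17299 and 21156 in D4 Sox1-FOXA2+ and 2454, 577 and 2169 in D4 Sox1+FOXA2- libraries. At D6 the values were 48323, 21040.0 and 24173 and 2574, 1833 and 1991. The lowest Sox1-FOXA2+ library was thus above the highest Sox1+FOXA2- library on both days. The ratio of means was 11.1 at D4 (log2 fold change 3.53 ± 0.459, edgeR adjusted p = 0.000215) and 14.6 at D6 (4.08 ± 0.534, adjusted p = 8.34e-05).

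Plod1 and Plod3 did not pass on either day. Plod3, which also has sugar transferase activity, counted 3430.3, 1893 and 1062 in D6 Sox1-FOXA2+ and 481, 2.69 and 303 in D6 Sox1+FOXA2- libraries (log2 fold change 3.28 ± 1.03, edgeR adjusted p = 0.162). Plod1 counted 1754, 784 and 1723 against 160.2, 21.5 and 451 (2.95 ± 1.41, adjusted p = 0.371). For both genes the D6 groups do not overlap, and Sox1+FOXA2- replicate 2 is the lowest library, at 2.69 for Plod3 and 21.5 for Plod1. At D4 the log2 fold changes were 1.47 ± 0.796 for Plod3 (edgeR adjusted p = 0.888) and 0.71 ± 0.813 for Plod1 (adjusted p = 1).

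The collagen chaperone gene Serpinh1 was also higher in Sox1-FOXA2+ cells. It counted 66375, 27712 and 34544 in D4 Sox1-FOXA2+ and 11858, 3835 and 4892 in D4 Sox1+FOXA2- libraries, a 6.25-fold ratio of means (log2 fold change 2.64 ± 0.494, edgeR adjusted p = 0.022). At D6 it counted 75882, 39958 and 40457 against 5719.6, 5937 and 3039, 10.6-fold (3.60 ± 0.477, adjusted p = 4.60e-05). No D4 or D6 Sox1-FOXA2+ library overlaps the other gate. The D4 call was lost without Sox1-FOXA2+ replicate 1 or without Sox1+FOXA2- replicate 2 or 3, and the D6 call stood without any 1 of the 6 libraries. In a fit of all 57 libraries 10 of the 13 calls of Serpinh1 over all comparisons did not pass, among them those at D4 against Sox1+FOXA2- (edgeR adjusted p = 0.138) and Sox1-FOXA2- cells (adjusted p = 0.0718), whereas its D6 calls against the same gates passed.

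The lysyl oxidases were not called at D4 or D6. Loxl2, which cross-links type IV collagen among its substrates, had the largest ratio of the 9 genes at D6, with counts of 24984, 20609 and 8628 in Sox1-FOXA2+ and 496, 118 and 494 in Sox1+FOXA2- libraries (48.9-fold). The groups lie far apart, but the log2 fold change of 5.86 ± 1.45 had the widest error of the members compared and an edgeR adjusted p of 0.139. Of 7 other settings, 4 called Loxl2 (DESeq2, no robust estimation, only the 2 groups, all 57 libraries), with adjusted p from 1.14e-06 to 0.177. At D4 it counted 5079, 4729.6 and 6063 against 1274, 431 and 709 (6.58-fold, edgeR adjusted p = 0.881). Lox was near the limit of detection. It counted 40.8, 47.3 and 36.5 in D4 Sox1-FOXA2+ libraries and 0 in all D4 Sox1+FOXA2- and Sox1-FOXA2- libraries (edgeR adjusted p = 0.881 and 0.681). Against a floor of 3 counts per library it was at least 14.1-fold and 15.6-fold higher, if each count is a separate event. Of counts from 1 to 100, 86.1% were even, so this bound may be too high. At D6 Lox counted 0, 0 and 223 in Sox1-FOXA2+ libraries, so that 1 library held all its counts.

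In all, 5 of 9 members (P4ha1, P4ha2, P4hb, Plod2 and Serpinh1) were higher at D4 in Sox1-FOXA2+ cells, set against Sox1+FOXA2- cells, where 0.266% of all genes tested were called in either direction. The same 5 were higher at D6 (1.32% of all genes). The median log2 difference of the 9 was 2.73 at D4 and 3.28 at D6, beside -0.10 and -0.30 over all genes, and Lox at its bound leaves the D4 median at the same value. Against Sox1-FOXA2- cells, a comparison that uses the same Sox1-FOXA2+ libraries, P4ha1, P4hb, Plod2 and Serpinh1 were higher at D4 (0.336% of all genes) and D6 (1.00% of all genes), 7.67-fold, 4.38-fold, 10.7-fold and 7.56-fold at D4 and 9.59-fold, 5.73-fold, 12.5-fold and 9.33-fold at D6. Without D4 Sox1-FOXA2+ replicate 1, D4 Sox1+FOXA2- replicate 2 or D4 Sox1+FOXA2- replicate 3, the D4 count over Sox1+FOXA2- cells was 3 (P4ha1, P4hb and Plod2). With the replicate block, the count over all genes rose from 61 to 144 at D4 and from 319 to 517 at D6, and from 77 to 153 against D4 Sox1-FOXA2- cells, where the members called rose from 4 to 5. Serpinh1 was not called against D4 Sox1-FOXA2- cells without replicate 1 of those cells.

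**Figure D3:**
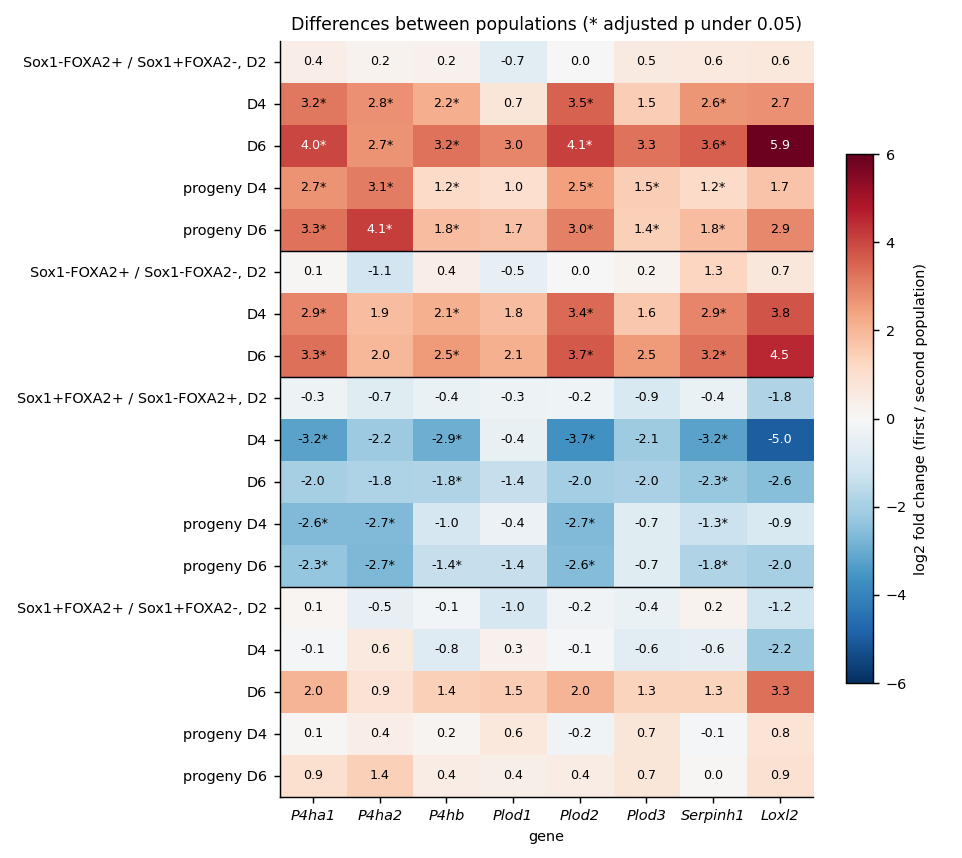
Log2 fold changes of 8 members (Lox left out for its 0 counts) in the comparisons between populations, sorted cells and progeny, with color for direction and size and a mark for an adjusted p under 0.05. P4ha1, P4hb, Plod2 and Serpinh1 carry marks in the D4 and D6 comparisons of Sox1-FOXA2+ with Sox1+FOXA2- and with Sox1-FOXA2- cells. No gene carries one at D2.

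In cells positive for both reporters, 4 of 9 members at D4 and 2 of 9 at D6 were lower than in Sox1-FOXA2+ cells, and none passed against Sox1+FOXA2- cells on these days. At D4 P4ha1 counted 1111, 1549.7 and 2910.1, Plod2 1589, 2588 and 1557 and Serpinh1 7224, 3806 and 5900.4 in Sox1+FOXA2+ libraries, all below every Sox1-FOXA2+ library. P4ha1 (7.25-fold), P4hb (6.11-fold), Plod2 (10.1-fold) and Serpinh1 (7.60-fold) were lower than in Sox1-FOXA2+ cells, 4 of 9 where 0.475% of all genes were called (edgeR adjusted p = 0.000242, 0.000196, 0.000168 and 0.00386). Against Sox1+FOXA2- cells 0 of 9 passed (0% of all genes, 2 of 9 unadjusted, 0 with DESeq2). Serpinh1 was not called against Sox1-FOXA2+ cells without Sox1+FOXA2+ replicate 3.

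At D6 the 3 Sox1+FOXA2+ libraries differed from one another. P4ha1 counted 3586, 5059 and 14068 in replicates 1, 2 and 3, Plod2 4806, 5197 and 18452 and Loxl2 366, 2305 and 8789. Replicate 3 was the highest for each of these genes. The endoderm marker sum was also highest in replicate 3 and lowest in replicate 1 (values above), and the summed collagen and elastin genes were 54990.0, 51219 and 242371 in that order. Their part in the result was not tested. P4hb (14458, 13895 and 36341) and Serpinh1 (7595, 9087 and 23372) were lower than in Sox1-FOXA2+ cells, at log2 fold changes of -1.83 ± 0.390 (edgeR adjusted p = 0.0498) and -2.28 ± 0.451 (adjusted p = 0.0353), 2 of 9 where 0.0909% of all genes were called. Serpinh1 was called in 2 and P4hb in 4 of 7 other settings. The count was 0 without Sox1-FOXA2+ replicate 1 or Sox1+FOXA2+ replicate 1, 1 without Sox1+FOXA2+ replicate 2, and 4 without replicate 3 of either group. Against Sox1+FOXA2- cells 0 of 9 passed (0.0496% of all genes, 5 of 9 unadjusted). The nearest was P4ha1, at 2.03 ± 0.444 (edgeR adjusted p = 0.0726). Without Sox1+FOXA2+ replicate 1, 3 members were called (P4ha1, P4hb and Plod2), and DESeq2 called 3.

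Over time 6 of the 9 members rose in Sox1-FOXA2+ cells. From D2 to D6, P4ha1 went from 2793, 2435 and 1462 to 33091, 18643 and 21212, and Loxl2 from 629, 524 and 1519 to 24984, 20609 and 8628. No D2 library overlaps a D6 library for either gene. The log2 fold changes from D2 to D6 were 4.28 ± 0.468 for Loxl2 (20.3-fold, edgeR adjusted p = 0.000104), 3.62 ± 0.351 for Plod2 (adjusted p = 1.89e-05), 3.33 ± 0.330 for P4ha1 (adjusted p = 2.21e-05), 2.70 ± 0.465 for P4ha2 (adjusted p = 0.00586), 2.36 ± 0.344 for Serpinh1 (adjusted p = 0.000569) and 1.75 ± 0.283 for P4hb (adjusted p = 0.00163). These 6 of 9 stand beside 2.23% of all genes called, and the same 6 were called without any 1 of the libraries compared, with Plod3 added without D6 replicate 3. In a fit of all 57 libraries Serpinh1 was not called (edgeR adjusted p = 0.116).

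In the other gates none of the members passed from D2 to D6. The count was 0 of 8 tested in Sox1-FOXA2- cells (0.0188% of all genes, 0 unadjusted, 0 with DESeq2), 0 of 9 in Sox1+FOXA2- cells (0%, 2 unadjusted, 1 with DESeq2) and 0 of 8 in Sox1+FOXA2+ cells (0.126%, 3 unadjusted, 3 with DESeq2). In Sox1+FOXA2+ cells Plod2 was called without D6 replicate 1 or D6 replicate 2. Whether the change differed between gates was not tested. From D0 to D2 in Sox1-FOXA2- cells 0 of 8 passed where 1.93% of all genes did (4 unadjusted, 2 with DESeq2). Serpinh1 counted 856, 2.64 and 612 at D0 and 5079, 3170.2 and 3347 at D2, so that D0 replicate 2 stood near 0 while the other D0 libraries lay below every D2 library (log2 fold change 3.03 ± 1.24, edgeR adjusted p = 0.3). Serpinh1 was called without that library, and P4ha1 without D0 replicate 3.

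Progeny of the populations sorted at D2 showed the same ordering of the single-positive origins. At D4 the progeny of Sox1-FOXA2+ cells counted 7898, 10102 and 8737 for P4ha2 and the progeny of Sox1+FOXA2- cells 2064, 422 and 935. At D6 the values were 16619, 33998 and 33757 and 2106, 1461 and 1045, the widest called ratio of the members between progeny of different origin, 18.3-fold (log2 fold change 4.14 ± 0.393, edgeR adjusted p = 3.74e-05). The groups are well apart on both days. P4ha1 was 6.31-fold higher at D4 and 10.1-fold at D6 (16136, 38278 and 31953 against 3529.5, 3591 and 1469), and Plod2 5.35-fold and 8.58-fold (edgeR adjusted p = 0.00023, 0.000525, 0.00131 and 0.000265).

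P4hb, Plod3 and Serpinh1 differed less. P4hb counted 43974, 88611 and 105069 in D6 progeny of Sox1-FOXA2+ cells and 22619.6, 25353 and 16127 in those of Sox1+FOXA2- cells (3.71-fold, log2 fold change 1.83 ± 0.291, edgeR adjusted p = 0.000993). Serpinh1 counted 33096, 77346 and 86877 and 18274, 20227 and 14535 (3.72-fold, 1.84 ± 0.308, adjusted p = 0.00146). Plod3 counted 3531, 4467 and 4939.8 and 1829, 1814 and 931 (2.83-fold, 1.44 ± 0.306, adjusted p = 0.00823). None of these 3 genes overlaps between the origins at D6. At D4 their log2 fold changes were 1.17, 1.16 and 1.48 for P4hb, Serpinh1 and Plod3 (edgeR adjusted p = 0.0283, 0.0163 and 0.0295).

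The count called was 6 of 9 at D4 (1.97% of all genes) and the same 6 of 9 at D6 (6.91% of all genes), all higher in the progeny of Sox1-FOXA2+ cells. The median log2 difference of the 9 was 1.48 at D4 and 1.84 at D6, beside -0.02 and -0.04 over all genes. At D4 the count was 3 (P4ha1, P4ha2 and Plod2) without replicate 2 of either origin. P4hb and Plod3 were also lost at D4 without Sox1+FOXA2- replicate 1 or Sox1-FOXA2+ replicate 3, and Serpinh1 without Sox1+FOXA2- replicate 3. The replicate block, whose numbers pair the D4 progeny, added Loxl2 (edgeR adjusted p = 0.000631, and 9.51e-06 to 1 over 7 other settings) and raised the count over all genes from 408 to 885. Loxl2 in D6 progeny counted 7695, 32888 and 27036 against 2609, 4977 and 1156 (7.73-fold, edgeR adjusted p = 0.0543), and Lox 6.90, 5.14 and 34.1 against 27.1, 104 and 18.4 (adjusted p = 0.595). In a fit of all 57 libraries Serpinh1 and Plod3 were not called on either day, nor P4hb at D4 (edgeR adjusted p from 0.138 to 1).

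In progeny of Sox1+FOXA2+ cells 4 of 9 members at D4 and 5 of 9 at D6 were lower than in those of Sox1-FOXA2+ cells. Lox did not pass, at log2 differences of 1.51 and 2.42. At D6 P4ha1 counted 8093, 4832 and 4419 and P4ha2 6588, 3463 and 3109, above all 3 libraries of Sox1+FOXA2- origin and below all 3 of Sox1-FOXA2+ origin. Against Sox1-FOXA2+ origin, P4ha1, P4ha2, Plod2 and Serpinh1 were lower at D4 (5.81-fold, 5.93-fold, 5.88-fold and 2.27-fold, 4 of 9 where 0.792% of all genes were called), and these with P4hb at D6 (4.98-fold, 6.41-fold, 6.09-fold, 3.45-fold and 2.62-fold, 5 of 9 where 4.63% of all genes were). The edgeR adjusted p of these calls ran from 0.000664 to 0.0142. With the replicate block the D4 count was 5, with P4hb added (edgeR adjusted p = 0.00168, and 0.00168 to 0.428 over 7 other settings), and the count over all genes rose from 164 to 637. Serpinh1 was not called at D4 without Sox1+FOXA2+ replicate 1 or 3 or Sox1-FOXA2+ replicate 2, and the D6 count was 3 without Sox1+FOXA2+ replicate 2, with P4ha1 and P4hb lost. Against Sox1+FOXA2- origin 0 of 9 passed at D4 (0.00483% of all genes, 1 unadjusted, 0 with DESeq2) and 0 of 9 at D6 (0.180%, 3 unadjusted, 1 with DESeq2). The comparisons within a day share libraries, so their values are not independent of each other. In a fit of all 57 libraries Serpinh1 was not called on either day, nor P4ha2 at D4 (edgeR adjusted p from 0.134 to 1).

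Set against sorted cells of the same gate and day, members were called in the progeny of Sox1+FOXA2- cells at D6 and of Sox1+FOXA2+ cells at D4. At D6, Serpinh1 counted 18274, 20227 and 14535 in progeny of Sox1+FOXA2- cells and 5719.6, 5937 and 3039 in sorted Sox1+FOXA2- cells (3.61-fold, log2 fold change 2.06 ± 0.436, edgeR adjusted p = 0.00863). P4hb counted 22619.6, 25353 and 16127 and 9430.0, 6579.5 and 6216 (2.88-fold, 1.75 ± 0.363, adjusted p = 0.00521). Neither gene overlaps between the arms. These 2 of 9 stand beside 3.40% of all genes, and the count was 0 without sorted Sox1+FOXA2- replicate 3. The summed count of 7 mesenchyme and fibroblast genes was 53199.5 to 68903 in these progeny and 1133 to 2661 in the sorted cells, with none of the 7 at 0 in a whole group and 3 of the 7 called higher. The 7 endoderm genes summed to 11989.5 to 28362 in the progeny and 3974 to 5044 in the sorted cells, with 1 of 7 called (Gata6). The 5 neuroectoderm genes summed to 42535 to 66239.6 and 16979.7 to 17803, with 3 called higher and a lowest log2 fold change of -2.39. None of these genes was at 0 in a whole group. Their part in the result was not tested. In a fit of all 57 libraries Serpinh1 was not called (edgeR adjusted p = 0.0987).

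At D4 P4hb was higher in progeny of Sox1+FOXA2+ cells (14839.8, 24132 and 15573) than in sorted Sox1+FOXA2+ cells (8247, 4836 and 10745), at a log2 fold change of 1.35 ± 0.320 (edgeR adjusted p = 0.0256), 1 of 9 where 1.32% of all genes were called. The count was 3 without sorted replicate 1 (P4hb, Serpinh1 and Loxl2) and 0 without progeny replicate 2. Without sorted replicate 2 Loxl2 was called in place of P4hb, and in a fit of only the groups compared P4hb was not called (edgeR adjusted p = 0.0782). In these progeny and sorted cells the mesenchyme and fibroblast genes summed to 26009 to 37763 and 1187 to 2641 (0 of 7 called). The endoderm genes summed to 14363 to 23709 and 5459 to 12613 (0 of 7 called). The 5 neuroectoderm genes summed to 33069.8 to 62235 and 17002 to 27616 (Nr2f2 and Sox9 higher, lowest log2 fold change -2.18). No gene of these lists was at 0 in a whole group, and their part in the result was not tested. No member was called in D4 progeny of Sox1+FOXA2- (0.583% of all genes, 2 unadjusted, 1 with DESeq2, and Serpinh1 without sorted replicate 1) or Sox1-FOXA2+ cells (0.173%, 0 unadjusted, 0 with DESeq2), nor in D6 progeny of Sox1-FOXA2+ (0.121%, 1 unadjusted, 0 with DESeq2) or Sox1+FOXA2+ cells (2.37%, 0 unadjusted, 0 with DESeq2, and P4hb without sorted replicate 3). In the Sox1-FOXA2+ gate the median log2 difference of the 9 at D6 was 0.46, beside 0.03 over all genes, and Serpinh1 counted 33096, 77346 and 86877 in progeny and 75882, 39958 and 40457 in sorted cells, which overlap.

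Whether the gap between Sox1-FOXA2+ and Sox1+FOXA2- cells differed between progeny and sorted cells was tested with an interaction term, and 0 of 9 members passed at D4 (0% of all genes) or D6 (0.0196%). For Serpinh1 the gap in progeny minus the gap in sorted cells was -1.54 ± 0.526 on the log2 scale at D4 and -1.63 ± 0.597 at D6 (unadjusted p = 0.00666 and 0.0125, edgeR adjusted p = 1 and 0.361). For P4hb it was -1.04 ± 0.446 and -1.28 ± 0.501 (unadjusted p = 0.0269 and 0.0164, edgeR adjusted p = 1 and 0.364). P4ha2 pointed the other way at D6, at 1.59 ± 0.604 (unadjusted p = 0.0151, edgeR adjusted p = 0.364). At an unadjusted p under 0.05 there were 3 of 9 at D4 and 3 of 9 at D6, and DESeq2 called 0 and 0.

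**Figure D4:**
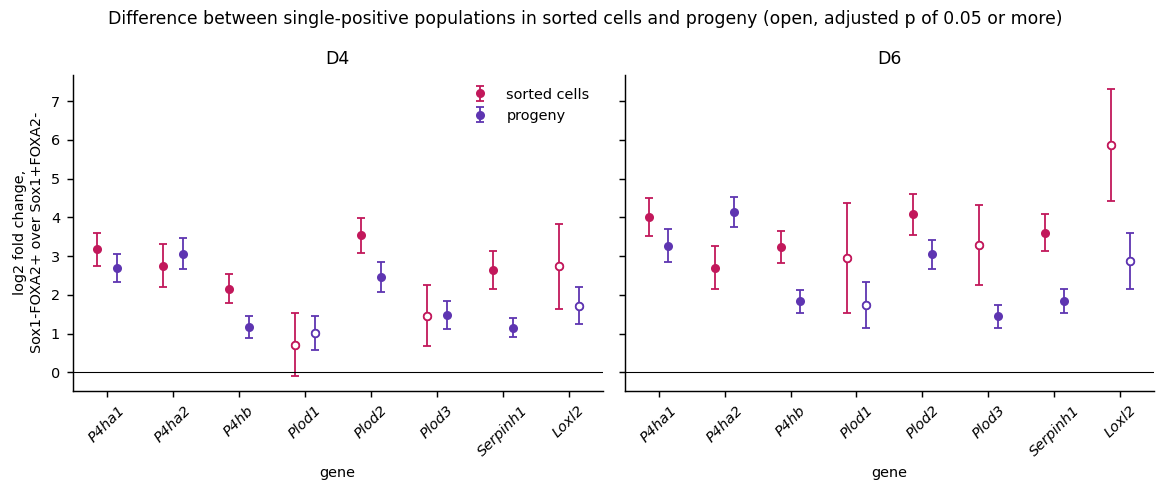
Log2 fold change of Sox1-FOXA2+ over Sox1+FOXA2- for 8 members (Lox left out), with bars of 1 SE, in sorted cells and in progeny at D4 and D6, filled where the adjusted p was under 0.05. Serpinh1 is at 3.60 in sorted cells and 1.84 in progeny at D6, and P4ha2 at 2.70 and 4.14.

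From D4 to D6 in the progeny of Sox1-FOXA2+ cells, Serpinh1 went from 26282, 31139 and 24354 to 33096, 77346 and 86877 (log2 fold change 1.27 ± 0.276, edgeR adjusted p = 0.0319), the 1 of 9 called where 0.341% of all genes were. The median log2 difference of the 9 was 1.55, beside 0.04 over all genes. The count depended on single libraries. It was 5 without D6 replicate 1, the lowest of its group for Serpinh1, and 0 without D4 replicate 1, D4 replicate 3, D6 replicate 2 or D6 replicate 3, and DESeq2 called 7. In progeny of Sox1+FOXA2- (0.0125% of all genes, 2 of 9 unadjusted, 0 with DESeq2) and Sox1+FOXA2+ cells (0.0916%, 6 of 9 unadjusted, 2 with DESeq2) the count was 0.

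The genes around these enzymes were taken from lists by function. Between D6 sorted Sox1-FOXA2+ and Sox1+FOXA2- cells, 1.32% of all genes tested were called in either direction. In the general endoplasmic reticulum chaperones, 6 of 8 were higher in D6 Sox1-FOXA2+ cells, set against Sox1+FOXA2- cells (Calr, Hsp90b1, Hspa5, Pdia3, Pdia4 and Pdia6, log2 fold changes from 1.79 to 2.49) and the list median was 2.08. These proteins fold and retain secreted proteins of every kind. Of 9 collagen and elastin genes, Col4a1 (7.77, edgeR adjusted p = 0.0192) and Col4a2 (6.54, adjusted p = 0.00408), the type IV chains, were higher and Col18a1 (-2.08, adjusted p = 0.041), which gives endostatin, was lower, with a list median of -1.36. The fibril-forming chains Col1a1, Col1a2, Col3a1, Col5a1 and Col5a2 did not pass, at -2.62, -0.53, -2.56, -1.14 and -1.36 on the log2 scale.

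Among 15 further collagen-modifying and cross-linking genes, P3h1 (3.33), a prolyl 3-hydroxylase, and Ppib (1.98), its cyclophilin partner, were higher at D6. In this list 0 were lower and the median was 1.39, where 1.32% of all genes tested were called. Of 8 genes of procollagen export, Mia3 (1.86), the cargo receptor TANGO1, and the COPII coat gene Sec24d (2.24) were higher (median 1.28). Of 8 genes of procollagen processing outside the cell, 0 were higher and the propeptidase gene Adamts14 (-6.67) was lower (median -1.31). Of 10 hypoxia-response genes that are no members, only Vegfa (2.54) was higher, and the list median was 0.33, beside -0.30 for all genes. The per-gene edgeR adjusted p of these 6 genes ran from 0.00638 to 0.0399.

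In D6 progeny the same contrast called 6 of 8 chaperones (Calr, Canx, Hsp90b1, Pdia3, Pdia4 and Pdia6) higher, with a list median of 1.06. This contrast called 6.91% of all genes tested, in either direction, which stands beside each count that follows. Col4a1 (3.53) and Col4a2 (3.24) were again higher, whereas the fibril-chain genes Col5a1 (-1.74) and Col5a2 (-2.97) were lower in progeny of Sox1-FOXA2+ cells. The 15 further enzymes split into 3 higher (Colgalt1, P3h1 and P3h2) and 3 lower (Fkbp10, Loxl1 and P4ha3). P4ha3, the third catalytic prolyl 4-hydroxylase subunit, was lower (-1.63, edgeR adjusted p = 0.0355) where P4ha1 and P4ha2 were higher. Export genes had 3 higher (Mia3, Sec23a and Sec24d), processing genes 3 lower (Adamts2, Pcolce and Tll1), and hypoxia-response genes 3 higher of 10 (Bnip3 1.62, Ero1l 1.62 and Vegfa 1.32). Ero1l encodes the oxidase that recharges protein disulfide isomerases.

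In progeny of Sox1+FOXA2- cells against the sorted cells at D6, where P4hb and Serpinh1 rose, 4 of 9 collagen genes were higher (Col1a1 7.13, Col3a1 6.65, Col4a1 4.61 and Col4a2 3.86 on the log2 scale), as were 4 of 8 chaperones (Calr, Hsp90b1, Hspa5 and Pdia3) and 3 of 15 further enzymes (P3h1, P3h4 and Pxdn). These counts stand beside 3.40% of all genes tested. Col1a1 and Col3a1 are chains of fibrillar collagen, and Col3a1 also belongs to the mesenchyme list above. In Sox1-FOXA2+ cells none of these lists had a call between progeny and sorted cells at D6 (0.121% of all genes).

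Over the 19 condition means, the profile nearest to each member was sought by Pearson's r among 16644 genes with a mean of at least 50 normalised counts. Conditions share days and gates, so r is a description. P4ha1 was nearest to Plod2 (0.985) and Lamb1 (0.967), Plod2 to P4ha1 (0.985) and Sec24a (0.968) and P4ha2 to B4galt1 (0.951) and P4ha1 (0.942), so that P4ha1 and Plod2 were each other's nearest of all genes compared. P4hb was nearest to Pdia3 (0.973) and Calr (0.969), both chaperones of glycoprotein folding, and Loxl2 to Ggta1 (0.964) and Tax1bp3 (0.957). Plod3 was nearest to Clcn5 (0.937) and Timp2 (0.927), Serpinh1 to Lipa (0.940) and Eogt (0.939) and Plod1, the least matched, to Tirap (0.856) and Vmp1 (0.855). Lox was too low to be compared. Among the members themselves r ran from 0.557 (Plod1 and Plod2) to 0.985, and Serpinh1 was nearest to Plod3 (0.898) rather than to the prolyl hydroxylase subunits.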

How the data were processed

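Bulk RNA-seq was made with the SMART-Seq Stranded Kit from sorted cells and from progeny cultures that were not sorted again. The authors aligned reads with STAR to GENCODE M21 (GRCm38), used SAMtools, and deposited raw counts per gene from featureCounts, not normalized. Versions and strand and multimapping settings are not given in the sources used here. The 92 lines that name no gene held 0 counts and were left out, and 0 columns were unmatched. Of counts from 1 to 100, 86.1% were even.

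Genes were tested with edgeR 4.0.16 in R 4.3.3 (quasi-likelihood test with robust estimation, TMM, filterByExpr at min.count 10 and min.total.count 15), two-sided, in 1 fit per day and arm, per gate over time or per day over both arms, with Benjamini-Hochberg adjustment over all genes tested. Normalised counts used DESeq2 1.42.0 size factors (0.225 to 2.65). Tables and figures used Python 3.11.15, pandas 2.3.3, numpy 2.4.6 and matplotlib 3.10.9. A gene with 0 counts was given a floor of 3 counts per library, for counting error only. The test script was checked on artificial counts. Alternatives were DESeq2's Wald test, RLE normalization, no filter, a replicate block, only the groups compared, all 57 libraries, no robust estimation and each library left out.

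Replicate numbers were taken to pair libraries where deviations from the group means correlated over 0.1 for all 3 numbers (5000 genes), which held in 11 of 32 comparisons over a range from -0.305 to 0.606. Named genes are the 9 members, the genes of the function and marker lists and the 2 nearest profiles of each member. Members and lists were chosen with earlier results of these data known.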

Additional observations from a re-analysis of the deposited data

How the results depend on the processing

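Of 55 member calls in 14 of 34 comparisons, 55 stood with DESeq2's Wald test, 53 with RLE normalization, 55 with no filter on low counts, 54 with the replicate block, 51 without robust estimation (an alternative chosen after seeing the data), 49 in fits of only the groups compared and 41 in a fit of all 57 libraries, where 10 of those lost were of Serpinh1, and 17 were lost without at least 1 library. None changed direction. RLE normalization moved the median log2 fold change of all genes by -0.158 (D6 Sox1+FOXA2+ progeny against sorted cells) to 0.214 (Sox1+FOXA2+ from D2 to D6). The cause of the changes below was not tested. Counts are listed below where they moved from or to 0 or by more than 1.5-fold. Smaller changes are mostly left out, so a comparison that is not listed may still have gained or lost a call. Lox had 0 counts in 26 of 57 libraries, so that a difference in it may not be detectable at this depth.

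With DESeq2 the count of members called moved from 0 to 1 for D2 Sox1-FOXA2+ against Sox1-FOXA2- cells, D6 progeny of Sox1+FOXA2+ against Sox1+FOXA2- cells, Sox1+FOXA2- from D2 to D6 and D4 Sox1+FOXA2- progeny against sorted cells. It moved from 0 to 2 for D0 to D2 and for Sox1+FOXA2+ progeny from D4 to D6, and from 0 to 3 for D6 Sox1+FOXA2+ against Sox1+FOXA2- cells and for Sox1+FOXA2+ from D2 to D6. It moved from 2 to 4 for D6 Sox1+FOXA2+ against Sox1-FOXA2+ cells and D6 Sox1+FOXA2- progeny against sorted cells, from 1 to 2 for D4 Sox1+FOXA2+ progeny against sorted cells and from 1 to 7 for Sox1-FOXA2+ progeny from D4 to D6.

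With no filter on low counts the count moved from 0 to 1 for D2 Sox1-FOXA2+ against Sox1-FOXA2-, D4 Sox1+FOXA2+ against Sox1+FOXA2-, Sox1+FOXA2- from D2 to D6, D6 Sox1+FOXA2+ progeny against sorted cells and Sox1+FOXA2- progeny from D4 to D6. It moved from 0 to 2 for D0 to D2, Sox1+FOXA2+ from D2 to D6 and the D6 interaction (Serpinh1 and Loxl2), to 3 for D6 progeny of Sox1+FOXA2+ against Sox1+FOXA2- and for Sox1+FOXA2+ progeny from D4 to D6, and to 4 for D6 Sox1+FOXA2+ against Sox1+FOXA2-. It moved from 2 to 5 for D6 Sox1+FOXA2+ against Sox1-FOXA2+, from 1 to 4 for D4 Sox1+FOXA2+ progeny against sorted cells, from 2 to 7 for D6 Sox1+FOXA2- progeny against sorted cells and from 1 to 7 for Sox1-FOXA2+ progeny from D4 to D6.

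In a fit of all 57 libraries the count was 1 for D6 Sox1+FOXA2+ against Sox1+FOXA2-, 3 in place of 6 for D4 progeny of Sox1-FOXA2+ against Sox1+FOXA2-, 2 in place of 4 for D4 progeny of Sox1+FOXA2+ against Sox1-FOXA2+, 1 for D0 to D2, 2 for Sox1+FOXA2+ from D2 to D6, 2 for D4 Sox1+FOXA2+ progeny and 1 for D6 Sox1+FOXA2- progeny against sorted cells, and 0 for Sox1-FOXA2+ progeny from D4 to D6. In fits of only the groups compared it was 0 for D6 Sox1+FOXA2+ against Sox1-FOXA2+, 1 for Sox1+FOXA2- from D2 to D6, 0 for D4 Sox1+FOXA2+ progeny and 4 for D6 Sox1+FOXA2- progeny against sorted cells, and 2 for Sox1+FOXA2+ progeny from D4 to D6. Without robust estimation it was 0 for D6 Sox1+FOXA2+ against Sox1-FOXA2+ and 2 for D4 Sox1+FOXA2+ progeny against sorted cells. With RLE normalization it was 0 for D6 Sox1+FOXA2+ against Sox1-FOXA2+ and 2 for Sox1-FOXA2+ progeny from D4 to D6.

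With the replicate block, where the numbers pair the libraries, the calls that changed are P4ha2, Loxl2 and P4hb as given above, and no other call changed. Where the libraries share only a number, the block moved the count from 1 to 2 for D4 Sox1+FOXA2+ progeny against sorted cells and from 1 to 3 for Sox1-FOXA2+ progeny from D4 to D6. In D6 Sox1+FOXA2+ against Sox1-FOXA2+ cells it lost Serpinh1 (edgeR adjusted p = 0.181) and added P4ha1 (adjusted p = 0.00974).

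With each library left out in turn, the count ran from 3 to 5 for D4 Sox1-FOXA2+ against Sox1+FOXA2-, 0 to 3 for D6 Sox1+FOXA2+ against Sox1+FOXA2-, 0 to 4 for D6 Sox1+FOXA2+ against Sox1-FOXA2+, 3 to 7 for D4 progeny of Sox1-FOXA2+ against Sox1+FOXA2-, 3 to 6 for D6 progeny of Sox1+FOXA2+ against Sox1-FOXA2+, 0 to 1 for D0 to D2, 0 to 1 for Sox1+FOXA2+ from D2 to D6, 0 to 1 for D4 Sox1+FOXA2- progeny, 0 to 3 for D4 Sox1+FOXA2+ progeny, 0 to 2 for D6 Sox1+FOXA2- progeny and 0 to 1 for D6 Sox1+FOXA2+ progeny against sorted cells, and 0 to 5 for Sox1-FOXA2+ progeny from D4 to D6.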
